A study of Mus musculus with 10 samples.

Results

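The genes described here make, sense and break down prostaglandins in the mouse kidney. They are the synthesis genes Ptgs1, Ptgs2, Ptges and Ptgds, the breakdown gene Hpgd and the prostaglandin E2 receptor genes Ptger1, Ptger3 and Ptger4. The genes were chosen by name, with earlier results of these data known, and every probe set that names only 1 of them was taken. This gave 10 probe sets for 7 of the 8 genes, out of 12422 probe sets in all. No probe set listed here names Ptgs1, so Ptgs1 was not analysed here. Each mouse gave 1 Affymetrix MG_U74Av2 array of total kidney RNA. The TG group, transgenic for FGF23, held 5 mice, numbered 614, 619, 652, 657 and 661. The WT group held 5 wild-type littermates, numbered 612, 618, 650, 658 and 663, and kidneys of both groups were taken at 8 weeks of age. The TG mice were made by microinjection and carry wild-type human FGF23 behind a type I collagen promoter (named 1 alpha col 1 in the labels), which is active in bone-forming cells. The strain is given as C57Bl. The genotype field calls all 10 samples transgenic, so groups were taken from the sample titles. The human transgene is not a gene of this mouse array, so it was not read here.

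Prostaglandins are lipid signals made from arachidonic acid. Phospholipases free arachidonic acid from membranes, the cyclooxygenases encoded by Ptgs1 and Ptgs2 turn it into prostaglandin H2, and terminal synthases such as those encoded by Ptges and Ptgds turn that into prostaglandin E2 or D2. In the kidney, prostaglandin E2 is known for its part in salt and water handling, renin release and blood flow. It acts through 4 receptors, EP1 to EP4, and is inactivated by the dehydrogenase encoded by Hpgd.

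Values are log2 expression values per probe set, and a value of 4 was used as a floor for low values. On each array 53.0% to 57.0% of probe sets exceeded it. The kidney markers Umod, Slc34a1, Aqp2 and Kl were well over the floor on every array, and the klotho gene Kl, the co-receptor of FGF23, fell by 0.76 ± 0.07 (log2 difference, SE, adjusted p = 0.000897, limma). Sex is not in the labels; the transcript Xist, which marks females, read 9.94 to 11.90 in TG 614, TG 652, WT 612 and WT 650 and 3.09 to 3.36 in the other animals. The gap between the 3' and 5' actin control probe sets, which widens in degraded RNA, was 1.82 to 2.58 in TG, against 1.95 to 3.35 in WT, and it was widest on the arrays of WT 612 (3.35) and WT 618 (2.90). WT 618 was the lowest WT animal for 4 of the 7 member probe sets tested. In whole kidney, fewer cells of a type and less RNA per cell cannot be told apart.

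A probe set was tested when it lay over log2 4 on at least 5 arrays. All 10 arrays exceeded the floor for 7 of the 10 probe sets: Ptges 104406_at, Ptgds 92545_f_at, Hpgd 93351_at, Ptger1 99998_at, Ptger3 96588_at, Ptger3 96589_at and Ptger4 103362_at. The Ptgs2 probe set 104647_at was over it on 3 arrays, and 2 of the 3 Ptgds probe sets on none. Of the 7 tested, 1 rose in TG, 0 fell and 6 did not pass. Over all 6814 probe sets tested, 1.22% passed in either direction, 0.792% being higher and 0.426% lower in TG. The gene that rose was Ptges. An unadjusted p under 0.05 was found for 2 of the 7, Ptges and Ptger4, against 12.7% of all tested. The median difference of the 7 was 0.17, against -0.02 over all tested, and 5 of the 7 were above 0, as were 46.2% of all tested. These 5 include both Ptger3 probe sets, 1 of them at 0.03. The genes were chosen with earlier results known, so these counts are a description and not a test.

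The promoters of Ptges and Ptgs2 are shown because their products act one after the other in making prostaglandin E2, and Ptges rose while Ptgs2 lay around the floor. They run from 250 bases before to 50 bases after the gene start, from RefSeq on build GRCm38.p6, which held a promoter for 7 of the 8 genes. Ptges lies at chr2:30903248-30903547 on the minus strand and Ptgs2 at chr1:150099781-150100080 on the plus strand, each written 5′ to 3′ along its gene. Capitals mark matches, on either strand, to 7 motifs: the GC box GGGCGG, the TATA box core TATAAA, the CCAAT box CCAAT, the E-box CACGTG, the cyclic AMP response element half-site TGACG, the C/EBP palindrome TTGCGCAA and the EGR1 motif GCGTGGGCG.
Ptges: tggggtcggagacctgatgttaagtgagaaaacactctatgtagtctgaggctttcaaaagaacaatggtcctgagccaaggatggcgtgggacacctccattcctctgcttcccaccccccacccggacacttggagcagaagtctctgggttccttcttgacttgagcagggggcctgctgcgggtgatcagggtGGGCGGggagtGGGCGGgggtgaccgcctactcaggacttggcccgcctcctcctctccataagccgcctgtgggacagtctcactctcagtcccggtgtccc
Ptgs2: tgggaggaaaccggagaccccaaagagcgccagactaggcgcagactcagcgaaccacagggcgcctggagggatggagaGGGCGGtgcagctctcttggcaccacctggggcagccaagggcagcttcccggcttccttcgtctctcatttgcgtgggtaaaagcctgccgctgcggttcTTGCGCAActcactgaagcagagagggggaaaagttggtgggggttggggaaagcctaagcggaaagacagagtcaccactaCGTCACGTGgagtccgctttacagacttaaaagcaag

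The Ptges window held the GC box 2 times, with first bases at -53 and -42 from the gene start, and none of the other motifs. The Ptgs2 window held the GC box, the C/EBP palindrome, the half-site and the E-box 1 time each, the last pair overlapping. Among 32851 mouse promoters of this length, 35.7% held a GC box, 20.8% the half-site, 7.15% the E-box and 0.183% the C/EBP palindrome. The TATA core was held by 13.6%, the CCAAT box by 37.4% and the EGR1 motif by 0.612%. These matches describe letters only.

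Ptges, which encodes microsomal prostaglandin E synthase-1, was 3.17-fold higher in TG kidneys. Its probe set 104406_at read 7.65, 7.30, 7.52, 6.93 and 6.68 in TG 614, 619, 652, 657 and 661, against 5.71, 5.34, 6.03, 4.94 and 5.75 in WT 612, 618, 650, 658 and 663. Every TG animal lay above every WT animal, with a gap of 0.65 between the lowest TG and the highest WT value. Groups that did not overlap were found for 1 of the 7 member probe sets and for 4.08% of all probe sets tested, 2.17% being higher in TG. The means were 7.22 ± 0.41 in TG and 5.55 ± 0.42 in WT (log2, SD, n = 5 each), a difference of 1.66 ± 0.24 (SE, adjusted p = 0.00969, limma). The exact permutation test gave a two-sided p of 0.00794, the smallest that 5 against 5 allows. Ranked by difference, Ptges stood at place 24 of 6814.

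The difference in Ptges was present in each subset that held both groups. It was 1.72 in females (2 TG and 2 WT) and 1.63 in males (3 and 3). It was 1.95 among the animals numbered 612 to 619 and 1.47 among those numbered 650 to 663. By chip lot it was 1.79 in the first lot and 1.88 in the second, and the third lot held TG 661 alone. On the first processing day, with 4 animals per group, it was 1.85. The tests of a different effect by sex and by number range gave adjusted p = 0.997 and 1.00 (limma interaction). The 2 TG females had the highest values in TG, and WT 650, a female, had the highest in WT.

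**Figure D1:**
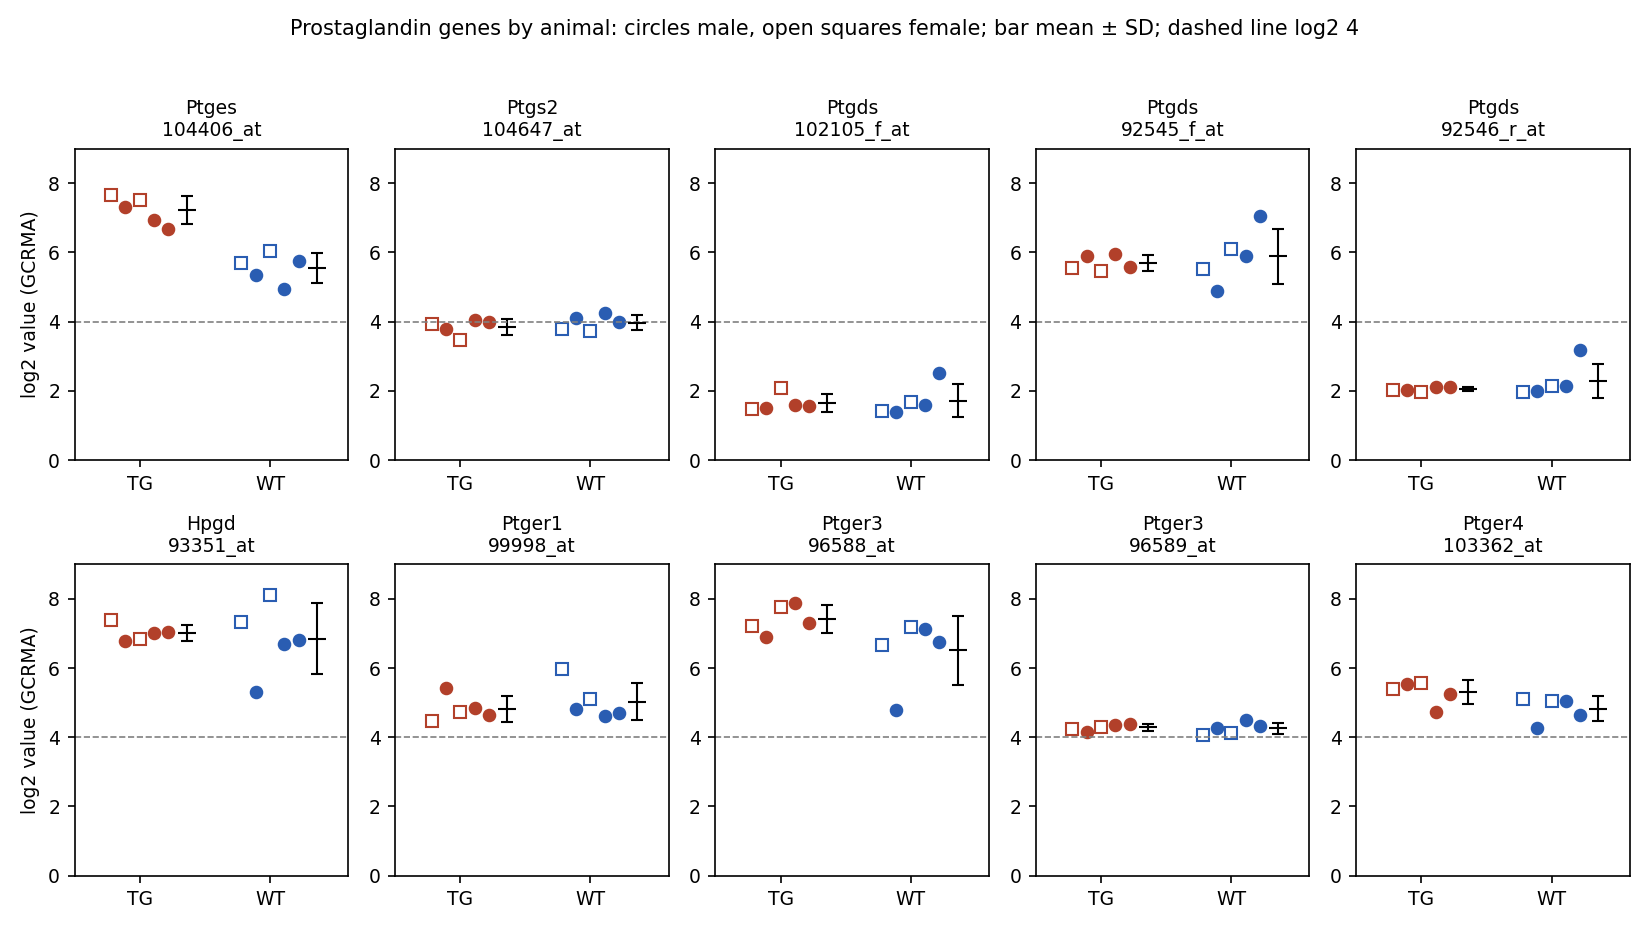
Log2 value of each of the 10 probe sets by animal, TG left of WT, with circles for males, open squares for females, a bar for the mean ± SD and a dashed line at the floor of log2 4. The Ptges points of TG (6.68 to 7.65) all lie above those of WT (4.94 to 6.03), while the groups overlap in the other 9 panels.

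Ptgs2, which encodes the inducible cyclooxygenase, gave no value that stood clear of the floor. It read 3.92, 3.80, 3.48, 4.04 and 3.99 in TG 614, 619, 652, 657 and 661, against 3.77, 4.11, 3.74, 4.26 and 3.98 in WT 612, 618, 650, 658 and 663. The groups overlapped, 1 TG and 2 WT animals lay over the floor, and Ptgs2 was not tested. With no filter on low values its difference was -0.12 ± 0.13 (SE, adjusted p = 0.928, limma).

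Ptgds encodes lipocalin-type prostaglandin D synthase, and its 3 probe sets differed in whether they lay over the floor. Probe set 92545_f_at read 5.55, 5.91, 5.46, 5.96 and 5.58 in TG 614, 619, 652, 657 and 661, against 5.53, 4.88, 6.11, 5.90 and 7.04 in WT 612, 618, 650, 658 and 663. The TG animals lay within the WT range, in which WT 663 was highest and WT 618 lowest. The difference of -0.20 ± 0.32 (SE) did not pass (adjusted p = 0.842, limma), and without WT 663 it was 0.09. It was 0.52 among the animals numbered 612 to 619 and -0.69 among those numbered 650 to 663, a contrast with adjusted p = 1.00 and unadjusted p = 0.0346 (limma interaction). The other pair of probe sets lay between 1.38 and 3.17 on every array, and WT 663 was highest of all animals on each of the 3. The suffix of 92545_f_at and 102105_f_at marks probe sets whose probes can match related sequences.

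Hpgd, the gene of 15-hydroxyprostaglandin dehydrogenase, varied more in WT than in TG. It read 7.38, 6.78, 6.84, 7.02 and 7.03 in TG 614, 619, 652, 657 and 661, against 7.32, 5.31, 8.10, 6.68 and 6.81 in WT 612, 618, 650, 658 and 663. All TG values fell inside the span between WT 618 and WT 650. The means were 7.01 ± 0.23 in TG and 6.84 ± 1.02 in WT (SD, n = 5 each). The difference was 0.17 ± 0.41 (SE, adjusted p = 0.899, limma), with a 95% interval from -0.74 to 1.07, and without WT 618 it was -0.22. By sex the difference was -0.60 in females and 0.68 in males. That contrast between the sexes did not pass (adjusted p = 0.996, limma interaction).

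Ptger3 encodes EP3, the receptor known for inhibiting salt uptake in the thick ascending limb and water uptake in the collecting duct. Probe set 96588_at read 7.22, 6.91, 7.78, 7.89 and 7.32 in TG 614, 619, 652, 657 and 661, against 6.66, 4.80, 7.20, 7.14 and 6.75 in WT 612, 618, 650, 658 and 663. Of the TG animals, 4 lay above every WT animal, and TG 619 lay between WT 663 and WT 658. The means were 7.42 ± 0.41 in TG and 6.51 ± 0.99 in WT (SD, n = 5 each), a 1.88-fold difference. The log2 difference of 0.91 ± 0.42 (SE) did not pass (adjusted p = 0.394, limma), with a 95% interval from -0.00385 to 1.83. The exact permutation test of this probe set alone gave a two-sided p of 0.0397, unadjusted. Without WT 618, the lowest animal, the difference was 0.49 (adjusted p = 0.537). It was 0.57 in females and 1.14 in males, and 1.34 and 0.63 in the lower and higher number ranges. WT 618 also had the second widest actin gap, and with that gap as a covariate the difference was 0.61 (adjusted p = 0.502), the part of RNA quality in it being not tested.

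The second Ptger3 probe set, 96589_at, lay between 4.08 and 4.50 on all 10 arrays and differed by 0.03 ± 0.10 (SE, adjusted p = 0.936, limma). Its range was smaller than that of 96588_at, whose values ran from 4.80 to 7.89. The 2 probe sets thus gave different pictures of the gene.

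Markers of the thick ascending limb moved with Ptger3 96588_at. The mean log2 value of the 4 other tested markers (Slc12a1, the sodium-potassium-chloride cotransporter; Umod, uromodulin; Kcnj1, a potassium channel; Egf) was 12.51, 12.14, 12.75, 12.34 and 12.37 in TG 614, 619, 652, 657 and 661. In WT 612, 618, 650, 658 and 663 it was 12.00, 11.06, 12.50, 12.15 and 12.01. WT 618 was lowest for the markers and for Ptger3, and TG 619 was the lowest TG animal for both. Other TG animals differed in order: TG 657 read 7.89 for Ptger3 at a marker mean of 12.34, and TG 614 read 7.22 at 12.51. With group means removed, Pearson r of Ptger3 96588_at was 0.92 with these markers and 0.81 with smooth muscle markers. Hpgd had r = 0.86 with the same limb markers, so the likeness was not particular to Ptger3. None of the 5 tested genes of this list, Ptger3 included, passed, with a median difference of 0.56. At an unadjusted p under 0.05 (limma) there were 2, against 12.7% of all tested. With sex as a block 1 of the 5 passed, Kcnj1 by probe set 103973_at (adjusted p = 0.0119). Over all tested probe sets 285 passed with that block, against 83 without it. Without the block Kcnj1 103973_at differed by 0.78 ± 0.21 (SE, adjusted p = 0.117, limma). The other tested Kcnj1 probe set, 103972_at, differed by 1.45 ± 0.44 (adjusted p = 0.193, and 0.115 with the block). The part of these markers in the Ptger3 values was not tested.

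**Figure D2:**
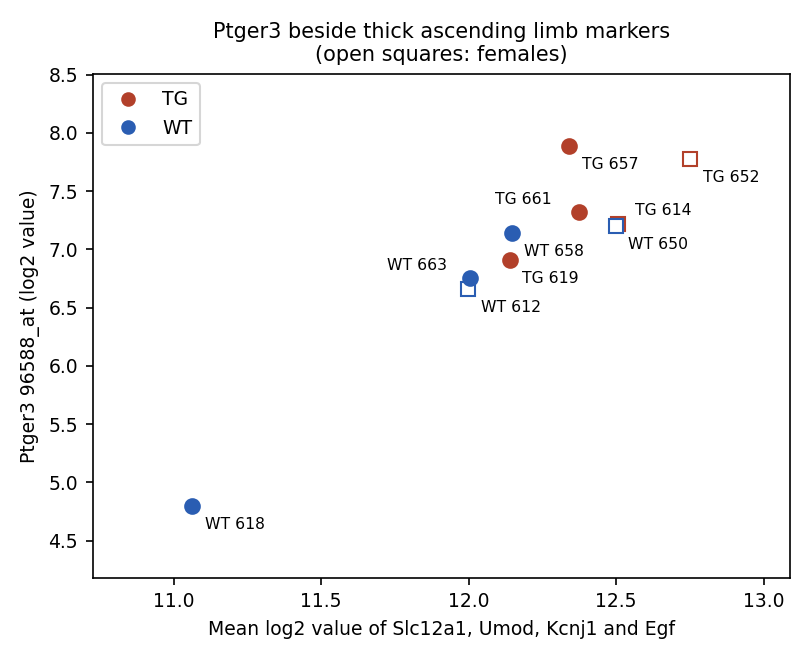
Ptger3 96588_at (log2 value, vertical axis) against the mean log2 value of 4 thick ascending limb markers (horizontal axis), 1 point per animal. WT 618 lies apart at 11.06 and 4.80, and the other 9 animals lie between 12.00 and 12.75 on the marker axis.

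Ptger4 encodes EP4, the receptor that raises cyclic AMP and is known in the kidney from glomeruli and renin release. It read 5.39, 5.55, 5.58, 4.74 and 5.26 in TG 614, 619, 652, 657 and 661, against 5.11, 4.26, 5.05, 5.05 and 4.66 in WT 612, 618, 650, 658 and 663. Of the TG animals, 4 lay above every WT animal and TG 657 lay inside the WT range. The difference of 0.48 ± 0.20 (SE, 1.40-fold) did not pass over all probe sets (adjusted p = 0.371, limma), with an unadjusted p of 0.037. The exact permutation test gave a two-sided p of 0.0714. The difference was 0.41 in females and 0.53 in males. Leaving out each animal in turn gave 0.34 to 0.62, with adjusted p from 0.187 to 0.645.

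Ptger1 encodes EP1, the calcium-raising receptor of the collecting duct. It read 4.47, 5.44, 4.74, 4.84 and 4.63 in TG 614, 619, 652, 657 and 661, against 5.96, 4.80, 5.10, 4.62 and 4.69 in WT 612, 618, 650, 658 and 663. The groups overlapped, with WT 612 highest and TG 614 lowest. The difference was -0.21 ± 0.26 (SE, adjusted p = 0.786, limma) and 0.02 without WT 612. It was -0.92 in females and 0.26 in males, a contrast with adjusted p = 0.996 and unadjusted p = 0.0158 (limma interaction). Over the 7 member probe sets, 0 passed the interaction with sex and 0 that with number range, 1 each having an unadjusted p under 0.05. Over all probe sets 0.0147% and 0.0% passed.

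**Figure D3:**
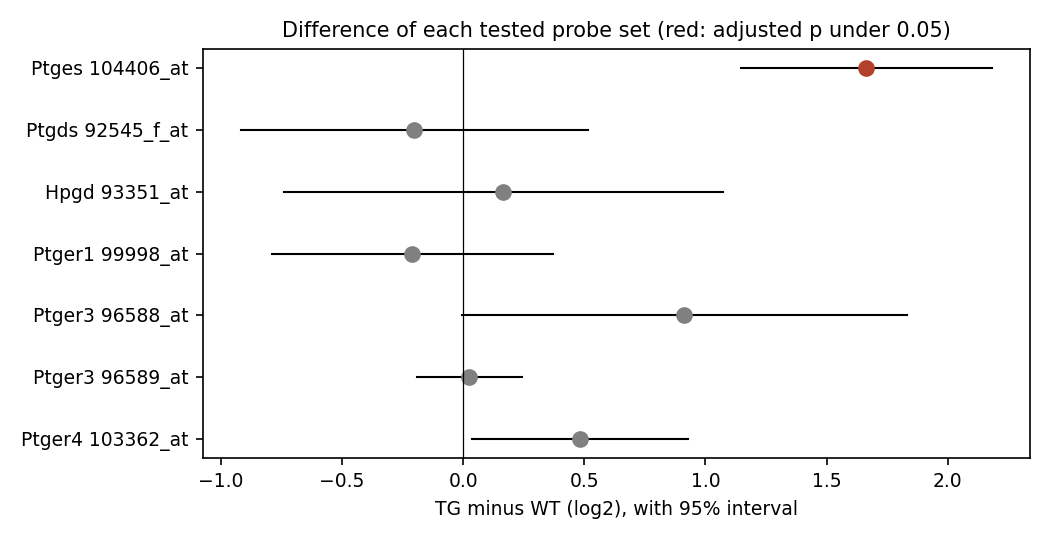
TG minus WT difference of the 7 tested probe sets on the log2 scale, with 95% intervals from limma; red marks an adjusted p under 0.05. The Ptges interval runs from 1.15 to 2.18, and the other 6 are drawn in grey.

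**Figure D4:**
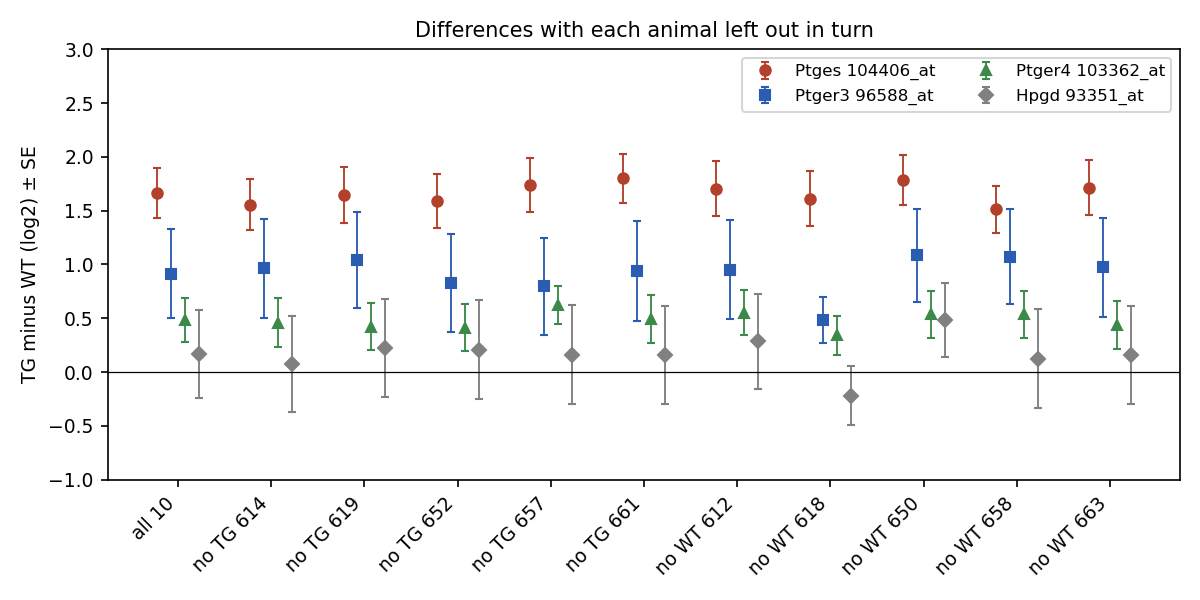
TG minus WT difference (log2, bars ± SE) of 4 probe sets with all 10 animals and with each animal left out in turn. Ptges stays between 1.51 and 1.80, and without WT 618 the Ptger3 difference is 0.49 and that of Hpgd is -0.22.

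Of 39 other genes of prostaglandin supply, synthesis, breakdown and reception, 22 had a probe set of their own and 11 were tested. Of the 11, 1 rose, 0 fell and 10 did not pass, with a median difference of 0.06. Over all probe sets tested 1.22% passed in either direction. At an unadjusted p under 0.05 there were 4 of the 11, against 12.7% of all tested. The gene that rose was Pla2g7, which is counted among the phospholipases by name and encodes a secreted enzyme that inactivates platelet-activating factor. Pla2g7 read 6.81, 6.50, 6.67, 6.57 and 6.79 in TG 614, 619, 652, 657 and 661, against 5.15, 4.44, 6.06, 5.16 and 5.24 in WT 612, 618, 650, 658 and 663. The groups did not overlap, and WT 650 was the WT animal nearest to TG. The difference was 1.46 ± 0.24 (SE, adjusted p = 0.0184, limma). Leaving out TG 614 or WT 658 ended the call (adjusted p = 0.0583 and 0.0584), and leaving out any of the other 8 animals did not. On the first processing day alone it was 1.43 with adjusted p = 0.11.

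Pla2g4a, the cytosolic phospholipase that frees arachidonic acid for the cyclooxygenases, read 6.46, 6.17, 6.10, 6.10 and 5.74 in TG 614, 619, 652, 657 and 661. In WT 612, 618, 650, 658 and 663 it read 5.67, 4.67, 5.70, 5.33 and 5.33. No TG animal lay below a WT animal, with TG 661 (5.74) and WT 650 (5.70) nearest to each other. The difference of 0.77 ± 0.20 (SE) did not pass (adjusted p = 0.111, limma) and passed with sex as a block (adjusted p = 0.0241). The calcium-independent phospholipase gene Pla2g6 differed by -0.52 ± 0.17 (adjusted p = 0.229) and had adjusted p = 0.0436 with sex as a block, the groups overlapping. Pla2g12a, which encodes a secreted phospholipase, differed by -0.09 ± 0.11 (SE, adjusted p = 0.785, limma).

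Among the other terminal synthases, the thromboxane synthase gene Tbxas1 differed by 0.45 ± 0.15 (SE, adjusted p = 0.23, limma), the aldose reductase relative Akr1b8 by 0.34 ± 0.17 and Ptges2, a second prostaglandin E synthase gene, by -0.19 ± 0.17. The carbonyl reductase gene Cbr1 differed by 0.17 ± 0.81, and its values ran from 8.82 to 10.90 in TG and from 7.98 to 11.53 in WT. Ptgr1, whose product reduces 15-keto prostaglandins, differed by -0.24 ± 0.45. Of the other receptors, Ptgfr for prostaglandin F2α (0.06 ± 0.32) and Tbxa2r for thromboxane (-0.03 ± 0.09) were tested. Ptger2, which encodes the fourth prostaglandin E2 receptor, and Ptgir, Ptgdr and Ptgdr2 lay under the floor on every array.

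**Figure D5:**
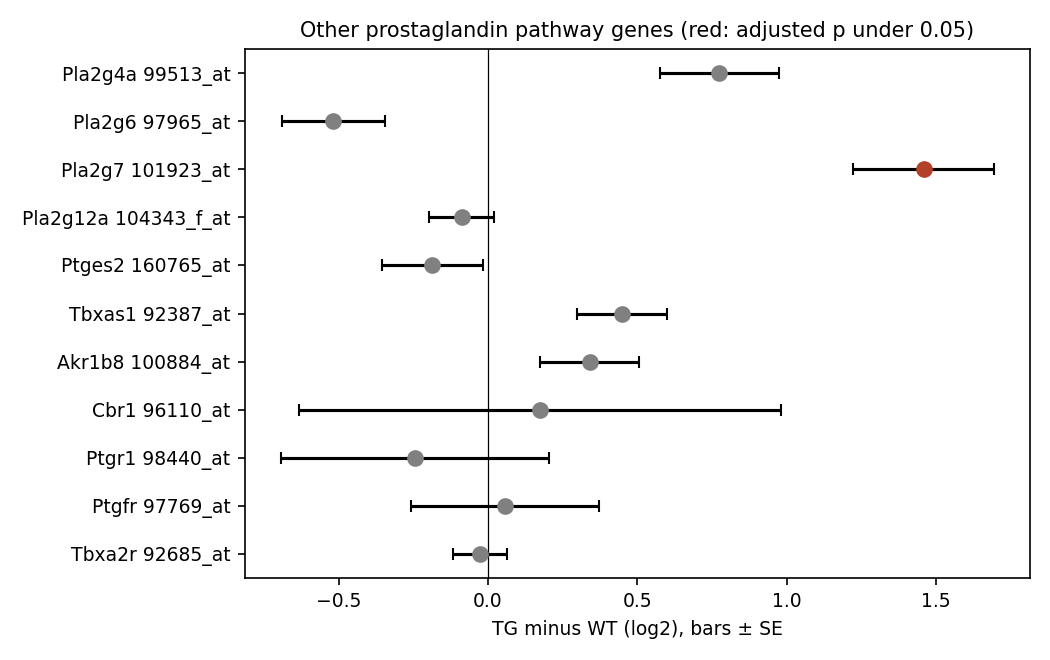
TG minus WT difference (log2, bars ± SE from limma) of the 11 tested genes among the other prostaglandin genes; red marks an adjusted p under 0.05. Pla2g7 at 1.46 lies farthest from 0, and Pla2g4a at 0.77 is next.

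Genes known to act on Ptges and Ptgs2 in inflammation gave 0 of 12 past the test. At an unadjusted p under 0.05 (limma) there were 2 of the 12, against 12.7% of all probe sets tested. Of the 12, 9 had a positive difference (46.2% over all probe sets tested), with a median of 0.25. The list holds inhibitors as well as drivers, so the count of 9 is not a shared direction of drivers. With sex as a block 1 of the 12 passed, Nfkb2 (adjusted p = 0.0119). The smallest p belonged to the NF-κB subunit gene Nfkb2, at 5.02 ± 0.23 in TG and 4.46 ± 0.16 in WT (SD, n = 5 each, adjusted p = 0.0704), followed by Rela (0.29 ± 0.11 SE, adjusted p = 0.312). The cytokine genes Il1a, Il1b, Il6 and Tnf lay under the floor on every array. Of 3 tested osmotic response genes 0 passed, also at an unadjusted p under 0.05, with a median of -0.18. Other eicosanoid genes had 0 of 7 past the test (1 at an unadjusted p under 0.05) and a median of 0.04. The examples with the smallest p were the fatty acid amide hydrolase gene Faah (-0.59 ± 0.17, adjusted p = 0.176) and the soluble epoxide hydrolase gene Ephx2 (-0.56 ± 0.45, adjusted p = 0.656). With sex as a block both passed (adjusted p = 0.0234 for Faah and 0.0368 for Ephx2).

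Markers of several other cell types also differed between TG and WT. The differences of the leukocyte markers were above 0 for 11 of 11 tested genes, 1 probe set each, against 46.2% of all probe sets tested. Among their other tested probe sets, Csf1r 161832_r_at differed by -0.08 and Laptm5 100012_at by 0.47. Of the 11, 2 rose, C1qa (1.46 ± 0.31, adjusted p = 0.0493, limma) and Ctss (1.24 ± 0.23, adjusted p = 0.037). Over all probe sets tested 1.22% passed in either direction. The mean log2 value of the 11 was 6.33 to 7.78 in TG and 5.71 to 6.32 in WT, while Cd68, Itgam, Adgre1 and Fcer1g lay under the floor on every array. With sex as a block 4 of the 11 passed, C1qb (adjusted p = 0.0415) and C1qc (0.0488) being added. C1qc exceeded the floor on only 6 arrays, every TG array among them, while its WT mean of 3.31 lay under it. Its call and its place among the 11 thus rest on WT signal mostly under the floor, where the size of a difference is uncertain. TG 619 and TG 614 were highest for these markers (7.78 and 7.31) and TG 652 lowest (6.33). For Ptges, TG 619, TG 614 and TG 652 read 7.30, 7.65 and 7.52. Of the 4 tested tubule injury markers 2 rose, Lcn2 (3.26 ± 0.39, adjusted p = 0.00388) and Clu (1.61 ± 0.19, adjusted p = 0.00322), and the list mean was 7.69 to 8.59 in TG and 6.57 to 7.27 in WT. Of 6 intercalated cell markers only 2 had a probe set of their own. Both were tested and rose, Kit (1.30 ± 0.26, adjusted p = 0.044) and Slc4a1 (0.83 ± 0.17, adjusted p = 0.0478). The mean of these 2 was 7.43 to 8.38 in TG and 6.51 to 7.24 in WT. Leaving out each animal in turn, Kit kept its call 3 times of 10, Slc4a1 2, Ctss 3 and C1qa 1, while Lcn2 and Clu kept theirs 10 times. Pearson r of Ptges with the list mean was 0.79 for leukocyte, 0.87 for tubule injury and 0.92 for intercalated cell markers. With group means removed it was 0.36, 0.27 and 0.63. For proximal tubule markers r was -0.93, and -0.66 with group means removed. For interstitial, podocyte, principal cell and endothelial markers r was 0.69, 0.35, -0.01 and 0.15. With group means removed these were 0.67, 0.63, 0.54 and 0.52, so intercalated cell markers did not stand apart. The part of these cell types in the Ptges difference was not tested.

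The remaining marker lists had 0 genes past the test, Kl among the kidney markers aside. At an unadjusted p under 0.05 (limma) there were 2 of 4 tested principal cell, 2 of 5 proximal tubule and 1 of 6 interstitial markers. Over all probe sets tested the share at that p was 12.7%. There were 0 of 6 endothelial, 0 of 3 smooth muscle, 0 of 2 podocyte, 0 of 2 adipose, 0 of 1 urothelial and 0 of 1 macula densa and juxtaglomerular markers. With sex as a block the proximal tubule transporter genes Slc34a1 (adjusted p = 0.0258) and Slc22a6 (0.0352) passed. Without the block they differed by -0.40 ± 0.08 (SE, adjusted p = 0.0533, limma) and -0.83 ± 0.45 (0.485). Among principal cell markers, where Ptges is known to be expressed, the water channel gene Aqp4 was at 8.63 in TG and 9.81 in WT (-1.18 ± 0.34, adjusted p = 0.163, and 0.0220 with sex as a block). The glucocorticoid-inactivating enzyme gene Hsd11b2 was at 9.91 in TG and 9.44 in WT (0.47 ± 0.17, adjusted p = 0.276, and 0.0644 with the block), so the principal cell markers did not share a direction. Median differences were 0.06 for principal cells, -0.40 for the proximal tubule, 0.50 for interstitial cells and -0.02 for endothelium. The principal cell means ran from 8.88 to 9.30 in TG and from 9.02 to 10.02 in WT. The 6 mast cell markers did not reach the filter. Nos1, a macula densa marker, lay under the floor on every array.

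The genes whose values over the 10 arrays were most like each member's were found by Pearson correlation, given as a description of likeness. For Ptges they were C77080 (r = 0.984), the tetraspanin gene Tspan8 (r = 0.975) and the phosphatase gene Dusp9 (r = 0.972). With group means removed, these became 0.931, 0.892 and 0.821. Their TG minus WT differences were 0.81, 1.14 and 2.29, which likeness to Ptges, whose groups do not overlap, largely fixes, so no test of them is given. For Ptger3 96588_at the nearest were Tprgl (0.970), Cbx5 (0.952) and Mfsd4a (0.950), and for Ptger4 they were Smad1 (0.954), Cfi (0.939) and Nr2f2 (0.914). Hpgd lay nearest to Uck2 (0.931), Itga6 (0.914) and Klf10 (0.902), Ptgds to Ldah (0.909), Bcl2l13 (0.904) and Usp15 (0.865), and Ptger1 to Dyrk1a (0.945), Il10rb (0.933) and Aldh1a3 (0.920).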

How the data were processed

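Kidney RNA from 10 mice was measured on 1 array each, and groups were taken from the sample titles. The authors deposited log2 expression values. The submitters' processing notes name GCRMA, without its version, as the tool. The log2 scale was read from the values. Probe-level files were not used. The run records, deposited as text in other units, gave chip lot, station and processing day per the file headers. Control probe sets (66 of 12488) were dropped; 10833 others carry a single gene symbol, 396 more than 1, and 1193 have none in the annotation used. Probe sets over log2 4 on at least 5 arrays were tested (6814) with limma 3.58.1 in R 4.3.3 (lmFit, eBayes), two-sided, with Benjamini-Hochberg adjustment over all tested and a threshold of 0.05. Exact permutation tests used all 252 assignments of animals to groups. The number of arrays limits precision. The limma steps were tested on simulated data.

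The members and gene lists were chosen with earlier results of these data known. Named genes are all members, the tested genes of the prostaglandin list, in other lists those past the threshold and the pair with the smallest p where members are described, and the 3 nearest in pattern to each member. Genes that passed only with sex as a block, and Hsd11b2, were named after their values were seen. In lists a gene is represented by its tested probe set with the highest mean. Alternatives covered filters, variance options, scaling, a pseudocount of 16, chip lot, station, day, number range, sex and leaving out each animal. Added after seeing the data were sex with number range, the actin gap as covariate and the first day alone. Figures were drawn with matplotlib 3.10.9 in Python 3.11.15.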

Additional observations from a re-analysis of the deposited data

Results flagged for a closer look

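Of 20 groups of 5 animals checked (10 probe sets in TG and in WT), 4 held an animal far from the rest of its group. The rule was a gap to the nearest value over 0.71 of the group's range (Dixon), which chance gives in about 1 in 20 independent groups. These groups are not independent, because the probe sets share the same 10 animals, so the 4 cannot be set against that rate. For Ptgds 102105_f_at, TG 652 read 2.094 with the other TG animals at 1.474 to 1.584. On the same probe set WT 663 read 2.524 with the other WT animals at 1.377 to 1.675. For Ptgds 92546_r_at, WT 663 read 3.168 with the others at 1.966 to 2.139. All of these values lie under the floor of log2 4. WT 663 was also the only array of the second processing day. For Ptger3 96588_at, WT 618 read 4.799 with the other WT animals at 6.656 to 7.203.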

How the results depend on the processing

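Ptges passed the test in each of the 27 other limma fits, with differences from 1.38 to 1.85 and adjusted p from 0.000644 to 0.0333. The number of member probe sets past the threshold was 1 in each of these fits and 2 in the exact permutation test, which is not adjusted and adds Ptger3 96588_at. Over all probe sets, 83 passed, against 48 with no filter, 52 with fluidics station as block, 32 with processing day as block or on the first day alone, 285 with sex as block, and 549 with sex and number range as blocks. With 1 animal left out this count ran from 31 to 92. Of the 193 settings computed for all members, Ptges included, 12 changed the sign of a difference, all of them in members that did not pass. Ptgds 92545_f_at was 0.11 under both day settings, and -0.455 (without WT 618) to 0.0857 (without WT 663) with 1 animal left out. Hpgd ran from -0.218 without WT 618 to 0.481 without WT 650. Ptger1 was 0.0945 with the actin gap as covariate, and ran from -0.363 without TG 619 to 0.0219 without WT 612. Ptger3 96589_at was -0.0044 with array weights, -0.0043 with median centring, -0.016 with chip lot as block and -0.054 with the actin gap as covariate, and ran from -0.0191 without WT 612, through -0.0094 without WT 650, to 0.0850 without WT 658. Ptger3 96588_at kept its direction, from 0.47 with the mean of both probe sets to 1.09, and was 0.61 with the actin gap as covariate. The cause of these changes was not tested. The day block leaves the lone arrays of the later days, TG 661 and WT 663, without weight. No paired analysis was done, because the labels do not say which TG and WT animals share a litter. Signal near the floor limits Ptgs2, Ptger3 96589_at and 2 Ptgds probe sets.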

Other observations

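Ltc4s encodes leukotriene C4 synthase, a membrane enzyme of the same protein family as the Ptges product, and was named after its values were seen. Its probe set 92401_at read 4.47, 4.53, 4.29, 3.91 and 4.06 in TG 614, 619, 652, 657 and 661, against 2.60, 3.13, 2.99, 2.72 and 2.51 in WT 612, 618, 650, 658 and 663. The groups did not overlap, but 4 arrays lay over the floor of log2 4, fewer than the filter asks for. All 5 WT values lie under the floor, so no fold change or test is given. Its other probe set, 162391_r_at, was under the floor on every array.

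Cbr1, a carbonyl reductase gene of prostaglandin metabolism, read 10.71 and 10.90 in the females TG 614 and TG 652 and 8.87, 8.82 and 9.18 in the males TG 619, 657 and 661. In WT it read 11.48 and 11.53 in the females WT 612 and WT 650 and 7.98, 8.39 and 8.23 in the males WT 618, 658 and 663. Every female lay above every male in both groups, a description that was not tested.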
